A study of Mus musculus with 6 samples.

Results

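The genes described here carry glucose into the heart muscle cell, break it down to pyruvate and lactate, feed pyruvate to the mitochondria, and build or break glycogen. They were a fixed list of 40 symbols, of 18029 genes represented in the table. Of the 40, 35 had a tested probe set (a group of short probes that measures 1 transcript), Gapdh was measured by the array's control probe sets alone, and Gpi1, Pfkfb1, Eno1 and Mpc2 were not analysed here. Each gene was represented by its probe set with the highest mean signal over all 6 arrays.

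RNA from whole hearts of 6 mice was hybridised to Affymetrix arrays, with 1 array per mouse. The wild type group was 3 mice labelled Flox; wild type, and the knockout group was 3 mice labelled Tmbim1 KO. All were on the C57BL/6 background, 8 weeks old, and had carried an aortic band, which raises the pressure load on the left ventricle, for 2 weeks. The sources used here name no Cre line or promoter for the knockout, and hearts without a band were not analysed, so every value compares genotypes under load. The hearts carried the 10 defining cardiomyocyte markers on every array, with a mean log2 signal of 12.68 to 12.90 over the list, and the array medians lay between 4.24 and 4.28. Knockout replicate 1 stood apart by its atrial markers, whose mean log2 signal was 10.99 there and 5.56 to 5.84 on the other 5 arrays. Wild type replicate 3 had the lowest fibroblast and macrophage marker levels, at 8.73 and 7.14, where the other arrays began at 9.52 and 7.44.

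Glucose enters cardiomyocytes through facilitative transporters, is trapped by hexokinases, and passes the committed step at phosphofructokinase before the shared lower part of glycolysis yields pyruvate. Several of these steps are run by more than 1 isoform, with a form enriched in muscle beside a form found in most cells. The adult heart normally takes most of its energy from fatty acids, and a hypertrophied heart is known to lean more on glucose. The question here was how the muscle and the ubiquitous isoforms stood in banded knockout hearts relative to banded wild type hearts.

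Promoter windows are shown for the pair of members that passed the test and for the ubiquitous isoforms with the highest differences. Each runs from 250 bases before to 50 bases after a RefSeq start on GRCm38.p6. Of the 40 members, 38 had at least 1 window, and Slc2a3 and Slc2a4 had none in the table. Capitals mark ACGTG and GCGTG, the core letters of the hypoxia response element, on either strand. For genes with several starts the window with the most matches is given.
Pfkm, chr15:98092339-98092638, plus strand: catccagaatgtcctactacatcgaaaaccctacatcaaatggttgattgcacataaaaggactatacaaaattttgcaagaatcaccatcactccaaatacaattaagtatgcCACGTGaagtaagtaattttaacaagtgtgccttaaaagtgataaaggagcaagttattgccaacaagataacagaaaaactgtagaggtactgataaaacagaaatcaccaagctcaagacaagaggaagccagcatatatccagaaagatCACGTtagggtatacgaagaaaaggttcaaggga
Pfkfb2, chr1:130715772-130716071, minus strand: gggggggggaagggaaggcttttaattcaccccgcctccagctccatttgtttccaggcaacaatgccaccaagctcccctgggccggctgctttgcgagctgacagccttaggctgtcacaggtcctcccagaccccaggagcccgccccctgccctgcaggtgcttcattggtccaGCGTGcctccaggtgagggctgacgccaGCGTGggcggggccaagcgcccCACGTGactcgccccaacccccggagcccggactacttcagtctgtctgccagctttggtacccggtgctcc
Slc2a1, chr4:119108495-119108794, plus strand: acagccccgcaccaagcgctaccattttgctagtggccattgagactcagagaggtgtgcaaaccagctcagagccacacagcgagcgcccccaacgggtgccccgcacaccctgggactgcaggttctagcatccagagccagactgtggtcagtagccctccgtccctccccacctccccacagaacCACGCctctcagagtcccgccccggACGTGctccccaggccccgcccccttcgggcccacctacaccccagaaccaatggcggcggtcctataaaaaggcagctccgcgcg
Pfkp, chr13:6648722-6649021, minus strand: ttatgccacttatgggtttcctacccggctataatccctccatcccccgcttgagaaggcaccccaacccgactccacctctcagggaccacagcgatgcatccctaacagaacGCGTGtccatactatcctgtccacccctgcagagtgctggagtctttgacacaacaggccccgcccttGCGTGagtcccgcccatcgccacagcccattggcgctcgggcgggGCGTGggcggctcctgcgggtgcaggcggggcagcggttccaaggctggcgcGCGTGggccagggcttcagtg

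These letters were present on both sides of the isoform split: the windows of Pfkm and Pfkfb2, which were lower in knockout hearts, held 3 and 4 matches, and those of Slc2a1 and Pfkp, which were higher, held 2 and 4. Each strand was counted, so the palindrome CACGTG counts as 2 matches. The Pfkm and Pfkfb2 windows each hold 1 such palindrome, marked as a single stretch. RefSeq lists 4 starts for Pfkm and 3 for Pfkfb2, and the array does not tell which start was used. The windows not shown held 0 to 2 matches for Pfkm and 1 each for Pfkfb2. Slc2a1 and Pfkp have 1 window each, so the counts of the 4 genes are not alike. Over all members, 25 of 59 windows (42.4%) held ACGTG, against 19.6% of all 32851 windows. GCGTG was found in 54.2% of member windows and in 32.4% of all windows. The E-box CACGTG, which contains ACGTG, was found in 10.2% and 7.15%. Windows of several starts of a gene can overlap, and the median GC content was 60.7% in member windows and 52.7% in all windows. A match is a description of sequence and not a bound site.

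Muscle isoforms of glucose metabolism leaned lower in knockout hearts and 2 of them fell past the threshold, while most of their ubiquitous counterparts leaned higher without passing. Among the 35 tested members, 2 fell past the threshold and 0 rose by limma (adjusted p under 0.05 over all 38195 probe sets), with Pfkfb2 1.71-fold and Pfkm 1.51-fold lower. At an unadjusted p under 0.05 there were 11 lower and 2 higher members. Over all probe sets 0.422% passed. Over the main probe sets of all genes, 0.227% passed as lower and 0.322% as higher, and 6.33% and 5.19% had an unadjusted p under 0.05 in those directions. In 12 members all 3 knockout hearts lay below all 3 wild type hearts and in 4 they lay above, or 34.3% and 11.4% of the 35, where 9.38% and 7.34% of all main probe sets did so. The median difference (knockout minus wild type, log2 scale) was -0.04 over members and 0.00 over all main probe sets.

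The split by isoform was wider than these totals show. Of the 9 muscle isoforms (Slc2a4, Hk2, Pfkm, Pfkfb2, Aldoa, Pgam2, Eno3, Ldhb and Pygm), 8 had a negative difference, 7 of them without overlap between the groups, and the median difference was -0.40. Of the 9 measured ubiquitous isoforms (Slc2a1, Hk1, Pfkl, Pfkp, Pfkfb3, Aldoc, Pgam1, Ldha and Pygb), 8 had a positive difference, 3 of them without overlap, with a median of 0.12. The exception, Pygb, was lower in all 3 knockout hearts. Of the 17 tested members in neither class, 11 were negative, with a median of -0.04. In 4 of them (23.5%) the knockout hearts lay wholly lower, and in 1 (5.88%) wholly higher. All main probe sets had shares of 9.38% and 7.34%. Lower values were thus not confined to muscle isoforms. The class names are loose for some pairs. Ldhb, counted as muscle, is the heart-type subunit, and Ldha, counted as ubiquitous, is also that of skeletal muscle. Aldoc and Pygb, counted as ubiquitous, are known as brain forms. An alternative chosen after seeing the data left out both knockout replicate 1 and wild type replicate 3. The medians of the muscle and the ubiquitous isoforms were then -0.38 and 0.03. The counts without overlap were then 7 and 3, but with fewer arrays 18.7% of all main probe sets lay wholly lower and 16.2% wholly higher. In RNA from whole hearts, fewer cells of a type and less RNA per cell cannot be told apart.

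**Figure D1:**
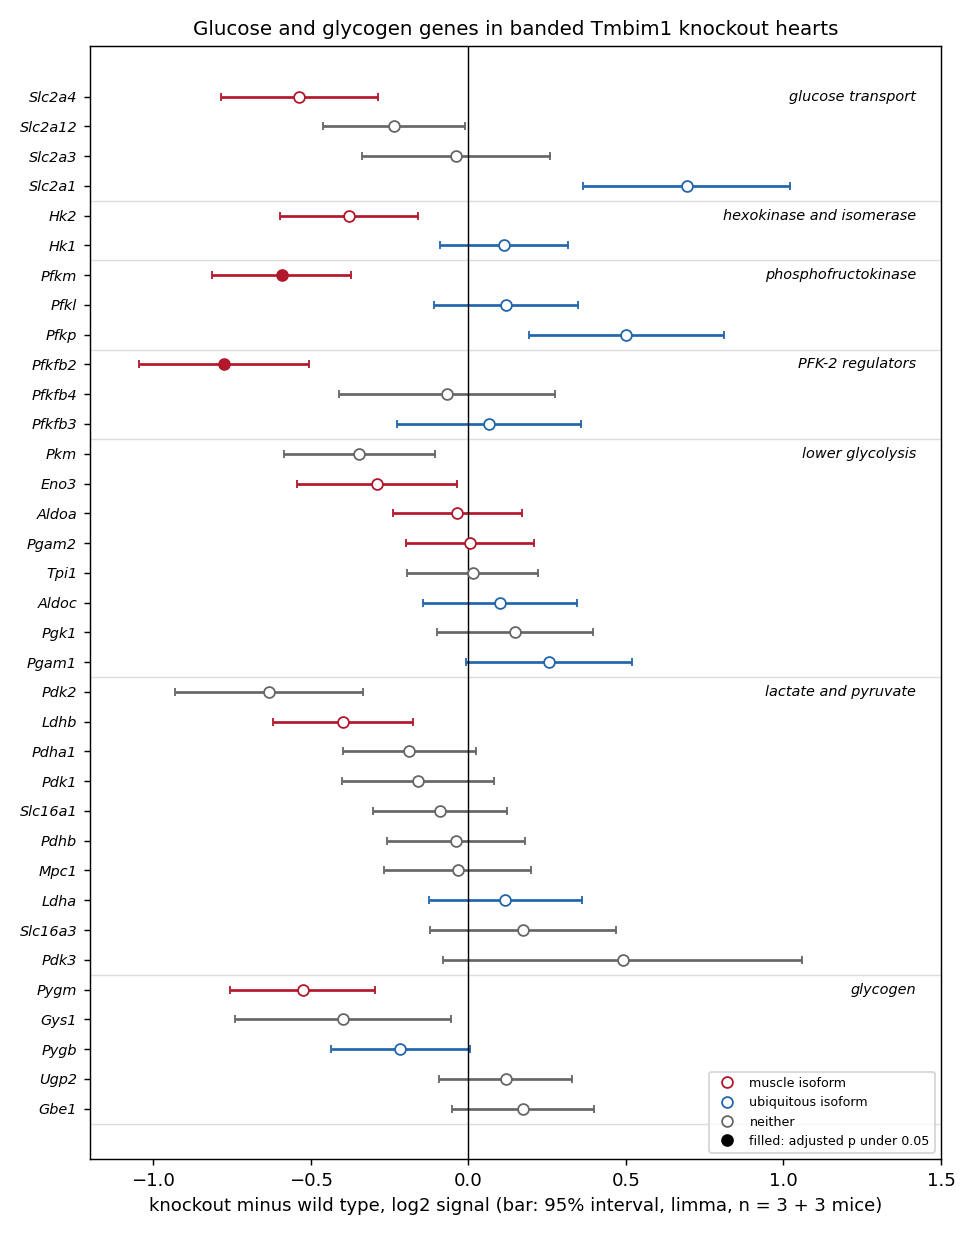
Difference in log2 signal between 3 knockout and 3 wild type hearts (x axis, knockout minus wild type) for the 35 tested genes (y axis, grouped by role), with 95% intervals from limma. Red marks muscle isoforms, blue ubiquitous isoforms, and the filled points Pfkfb2 (-0.77) and Pfkm (-0.59) passed an adjusted p under 0.05. Most red points lie left of 0, and blue points lie right of it except Pygb (-0.21).

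The glucose transporters differed in opposite directions. Slc2a1, which encodes the ubiquitous transporter GLUT1, had log2 signals of 6.58, 6.71 and 6.13 in wild type hearts and 7.25, 7.05 and 7.21 in knockout hearts. The groups did not overlap, and wild type replicate 3 was the lowest array. The difference was 0.69 (SE 0.15, adjusted p = 0.0983 by limma), a 1.62-fold higher signal that did not pass. Its other probe sets were at 0.64 and 0.29. Slc2a4, which encodes the insulin-responsive transporter GLUT4 of muscle and fat, measured 9.89, 9.72 and 9.998 in wild type and 9.35, 9.20 and 9.45 in knockout hearts. Every knockout heart was below every wild type heart, by -0.54 on average (SE 0.11, adjusted p = 0.0950 by limma), and the gene's other probe set was at -0.58. The less studied transporter gene Slc2a12 (GLUT12) read 4.71, 4.55 and 4.70 against 4.43, 4.51 and 4.305, a difference of -0.24 (SE 0.10), while its dimmer probe set was at 0.05. Slc2a3, the transporter best known from neurons, was at -0.04 with a 95% interval of -0.34 to 0.26 and overlapping groups.

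At the trapping step the muscle and the ubiquitous hexokinase also separated. Hk2, the insulin-responsive hexokinase of muscle, read 9.99, 9.81 and 9.91 in wild type and 9.54, 9.43 and 9.59 in knockout hearts. The knockout hearts were all lower, by -0.38 (SE 0.10, adjusted p = 0.175 by limma), which did not pass. Hk1, the general hexokinase, stood at 8.69, 8.60 and 8.55 against 8.75, 8.71 and 8.72. These groups did not overlap either, although the gap between them was small. The difference was 0.11 (95% interval -0.09 to 0.32), and the dimmer probe set of Hk1 was at -0.09, so its direction rests on the probe set used.

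At phosphofructokinase, the main control point of glycolysis, the muscle subunit fell and the other subunits were at positive differences. Pfkm, its muscle subunit, measured 11.09, 10.93 and 11.16 in wild type hearts and 10.46, 10.44 and 10.50 in knockout hearts. The 3 knockout hearts lay close together, all below the lowest wild type heart, and the gene fell by 0.59 (SE 0.10, adjusted p = 0.0415 by limma). Pfkp, the platelet-type subunit found in many cell types, measured 8.41, 8.59 and 8.16 in wild type and 8.93, 9.06 and 8.66 in knockout hearts. All knockout hearts were higher, by 0.50 (SE 0.14, adjusted p = 0.199 by limma), but its dimmer probe sets were at -0.02 and 0.33. Pfkl, the liver-type subunit, read 7.79, 7.71 and 7.54 against 7.88, 7.76 and 7.75, with overlapping groups and a difference of 0.12 (95% interval -0.11 to 0.35). The call of Pfkm ended when any single array was left out (adjusted p = 0.0651 to 0.182 by limma), while its difference stayed between -0.66 and -0.54.

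The bifunctional PFKFB enzymes make and remove the small-molecule activator of phosphofructokinase. Pfkfb2 encodes the heart isoform, which is switched on by insulin and adrenergic kinases. Its log2 signals were 7.69, 7.83 and 7.40 in wild type hearts and 6.90, 6.92 and 6.78 in knockout hearts. No knockout heart reached the lowest wild type heart, and the gene fell by 0.77 (SE 0.12, adjusted p = 0.0348 by limma), the largest difference among the members. The other 3 probe sets of Pfkfb2, with mean signals of 3.22 to 4.15, were at -0.34, -0.23 and -0.01 and did not pass. With all 4 averaged the difference was -0.34 (adjusted p = 0.137 by limma). Of the fits that left out a single array, the call held only without wild type replicate 3 (adjusted p = 0.018 by limma). Pfkfb3, the inducible isoform of many cells, read 4.40, 4.72 and 4.52 against 4.84, 4.42 and 4.58 with overlapping groups and a difference of 0.07 (95% interval -0.22 to 0.36). Pfkfb4, another inducible isoform, was at -0.07, also with overlap.

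**Figure D2:**
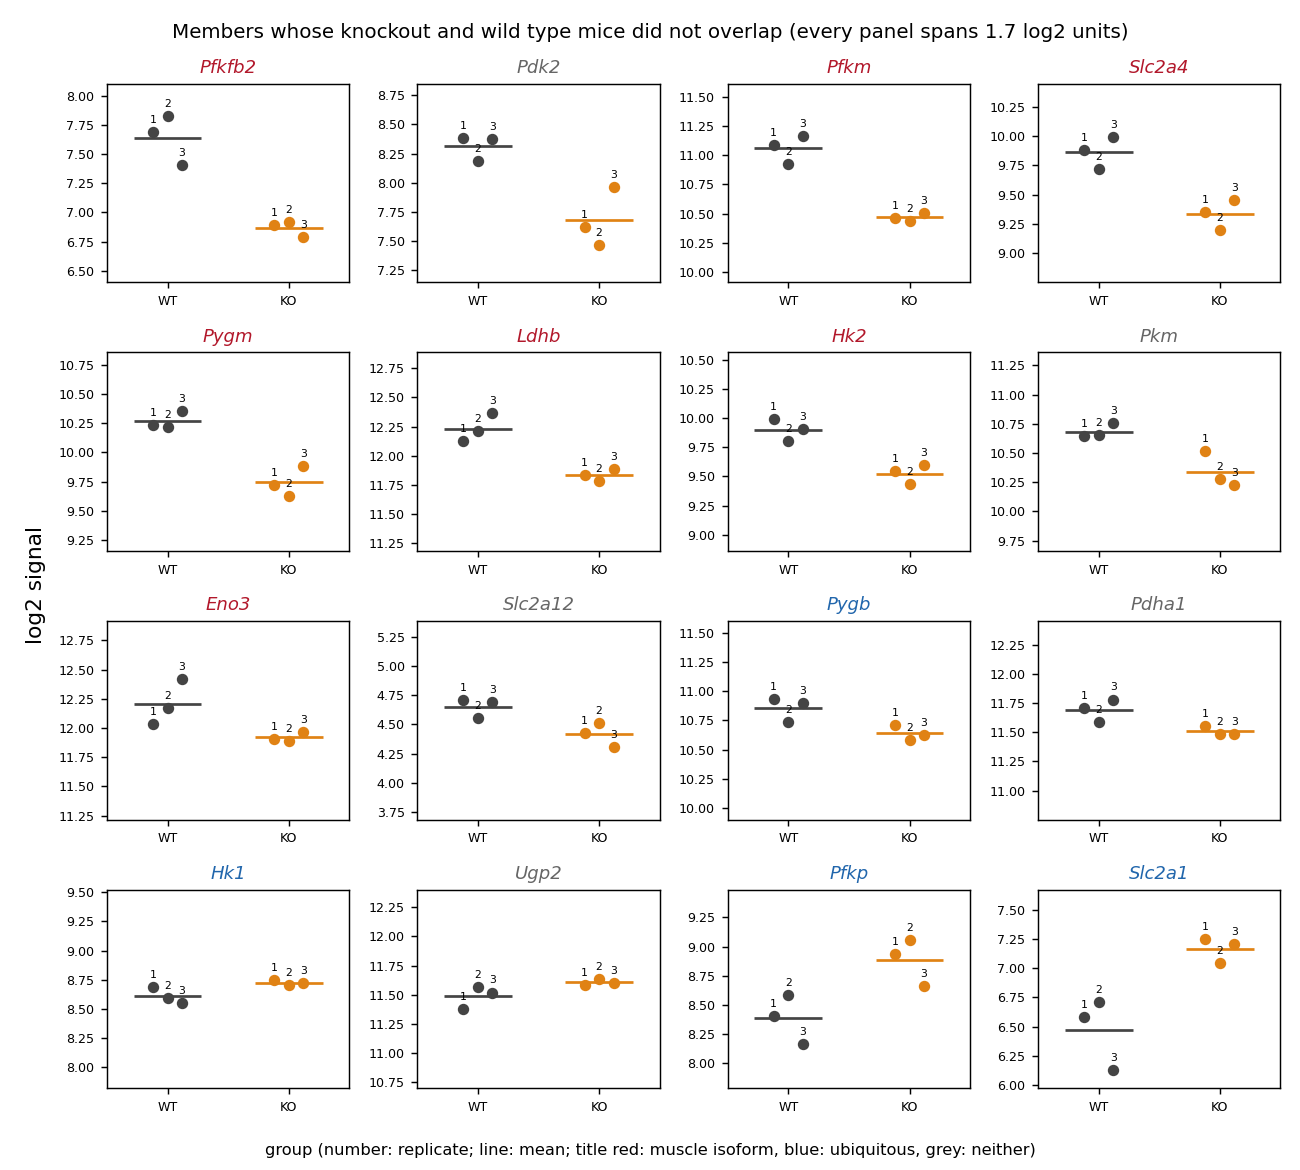
Log2 signal (y axis) of each mouse (points, numbered by replicate) in wild type (WT) and knockout (KO) hearts for the 16 genes whose groups did not overlap; lines are group means and every panel spans the same range. Gaps are wide for Pfkfb2 and Pfkm, and narrow for Hk1, Ugp2, Pygb and Pdha1.

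In lower glycolysis, from aldolase to pyruvate kinase, Eno3 and Pkm separated the groups and the other members did not. Gapdh was measured by 3 control probe sets, which were left out of the fit, and stood at 12.93 to 13.00 in wild type and 12.95 to 13.00 in knockout hearts at the set nearest the 3 prime end (difference 0.01, exact two-sided permutation p = 0.7 over n = 3 and 3 mice). The 3 prime signal minus the 5 prime signal of Gapdh, a sign of RNA integrity, was 0.17, -0.06 and -0.07 in wild type and -0.07, -0.05 and -0.08 in knockout hearts. Wild type replicate 1 had the highest value and the other 5 arrays lay close together. The same quantity for Actb, beta-actin, was 0.55, 0.33 and 0.42 in wild type and 0.30, 0.33 and 0.31 in knockout hearts, lower in every knockout heart. The part of this difference in the member values was not tested. Aldoa, the muscle aldolase, read 12.48, 12.36 and 12.44 against 12.40, 12.35 and 12.43, a difference of -0.03 (95% interval -0.24 to 0.17). Aldoc, the aldolase best known from brain, was dim, at 3.07, 3.07 and 3.10 against 3.39, 3.04 and 3.12 (difference 0.10), with the lower quartile of the arrays at 2.72 to 2.78. Neither aldolase separated the groups, and the excess in the knockout mean of Aldoc came from replicate 1. The direction of Aldoa turned under a second quantile normalization (0.02).

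Phosphoglycerate mutase showed no separation of its muscle form. Pgam2, the muscle mutase, read 12.29, 12.27 and 12.23 in wild type and 12.24, 12.23 and 12.34 in knockout hearts (difference 0.01, 95% interval -0.20 to 0.21). Pgam1, the mutase of most tissues, read 8.09, 8.35 and 7.97 against 8.49, 8.29 and 8.40, a difference of 0.26 (95% interval -0.01 to 0.52) in which knockout replicate 2 overlapped wild type replicate 2. Eno3, the muscle enolase, had signals of 12.04, 12.17 and 12.42 in wild type and 11.91, 11.89 and 11.96 in knockout hearts. The groups did not overlap, and the difference of -0.29 (SE 0.11, adjusted p = 0.397 by limma) was -0.18 without wild type replicate 3. Pkm, pyruvate kinase of muscle and most other tissues, read 10.64, 10.65 and 10.76 against 10.52, 10.28 and 10.22, lower in every knockout heart by -0.35 (SE 0.11, adjusted p = 0.252 by limma). Its splice forms are not told apart by this value. Triose phosphate isomerase, Tpi1, was at 0.01 and phosphoglycerate kinase, Pgk1, at 0.15, both with overlap. Several of these probe sets lie near the top of the scale (array maxima 13.66 to 13.78), where the signal can be compressed.

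Among genes of lactate and pyruvate handling, the heart form of lactate dehydrogenase and a pyruvate dehydrogenase kinase were lower. Ldhb, the heart-type subunit, measured 12.13, 12.21 and 12.36 in wild type and 11.84, 11.79 and 11.89 in knockout hearts. The groups did not overlap, and all 4 probe sets of Ldhb were between -0.40 and -0.31 (main probe set -0.40, SE 0.10, adjusted p = 0.162 by limma). Ldha, the subunit of skeletal muscle and many other tissues, read 11.63, 11.61 and 11.53 against 11.83, 11.78 and 11.52. Knockout replicate 3 was the lowest of all 6 arrays there, and the difference was 0.12 (95% interval -0.12 to 0.36). Pdk2, a kinase that shuts down pyruvate dehydrogenase, measured 8.38, 8.19 and 8.37 in wild type and 7.62, 7.47 and 7.96 in knockout hearts. Each knockout heart was lower, by -0.63 on average (SE 0.13, adjusted p = 0.0975 by limma), the second largest negative difference among the members, although it did not pass. The related kinase Pdk3 leaned the other way at 0.49, led by knockout replicate 1 at 5.59, with the other knockout hearts at 4.61 and 4.65 and wild type hearts at 4.83, 4.42 and 4.13. Without knockout replicate 1 its difference was 0.17. Pdk1 was at -0.16 with overlap, and its other probe sets were between 0.00 and 0.05.

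Neither gene of the enzyme those kinases act on passed. Pdha1, its catalytic alpha subunit, read 11.71, 11.59 and 11.78 against 11.55, 11.48 and 11.49, without overlap, at -0.19 (95% interval -0.40 to 0.03). The beta subunit gene Pdhb was at -0.04 and the mitochondrial pyruvate carrier gene Mpc1 at -0.03, and both changed sign in some alternatives. The lactate transporter genes Slc16a1 (MCT1, which imports lactate in heart) and Slc16a3 (MCT4, an exporter of glycolytic cells) were at -0.09 and 0.17, with overlap. Slc16a3 was dim, with group means of 3.26 and 3.44.

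Among the 5 glycogen genes 0 passed by limma (2 at an unadjusted p under 0.05), with both phosphorylases and the synthase at negative differences and Ugp2 and Gbe1 at positive ones. Pygm, the muscle glycogen phosphorylase, measured 10.24, 10.21 and 10.35 in wild type and 9.72, 9.63 and 9.88 in knockout hearts. The groups were well apart, at -0.52 (SE 0.10, adjusted p = 0.0787 by limma), without passing. Pygb, the brain-type phosphorylase that heart also carries, read 10.93, 10.74 and 10.90 against 10.71, 10.58 and 10.63. It was lower in every knockout heart by a narrower margin of -0.21 (95% interval -0.43 to 0.0045). Gys1, the muscle glycogen synthase, was at -0.40 (95% interval -0.74 to -0.05), but knockout replicate 3 at 7.95 exceeded wild type replicate 2 at 7.92. Ugp2, which makes the glucose donor for glycogen, read 11.38, 11.56 and 11.52 against 11.58, 11.64 and 11.60, without overlap, at 0.12 (95% interval -0.09 to 0.33), and its 5 probe sets lay between 0.06 and 0.13. The branching enzyme gene Gbe1 was at 0.17 with overlap.

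Setting each muscle isoform against its ubiquitous partner within the same mouse gave 9 measured pairs of 10 planned, as Eno1 was not analysed. The balance is the log2 signal of the muscle form minus that of the partner, and it is read only as a change between groups, since signals of different probe sets cannot be compared as levels. All 9 balances were lower in knockout hearts, and in 7 of them the groups did not overlap. The pairs share genes and mice and are not independent of the single-gene values above. With 3 mice against 3 the exact two-sided permutation test cannot go below p = 0.1, which those 7 pairs reached (adjusted p = 0.129 over the 9 pairs).

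The largest shift was that of the transporters. Relative to the wild type mean, the balance of Slc2a4 against Slc2a1 was -0.09, -0.38 and 0.47 in wild type hearts and -1.29, -1.24 and -1.15 in knockout hearts, a change of -1.23 (SE 0.25), or 2.34-fold. The knockout hearts lay close together and the wild type hearts were widely spread. Pfkm against Pfkp changed by -1.09 (SE 0.23), with wild type hearts at 0.01, -0.33 and 0.33 and knockout hearts at -1.14, -1.30 and -0.84. Pfkfb2 against Pfkfb3 changed by -0.84 (SE 0.17) and Pfkm against Pfkl by -0.71 (SE 0.13). In each of these the 3 knockout hearts stayed below the lowest wild type heart.

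Smaller shifts were measured for Ldhb against Ldha at -0.51 (SE 0.16), Hk2 against Hk1 at -0.49 (SE 0.06) and Pygm against Pygb at -0.31 (SE 0.09). The hexokinase balance was the tightest, with wild type hearts at 0.01, -0.08 and 0.06 and knockout hearts at -0.49, -0.56 and -0.42. The mutase pair at -0.25 (SE 0.12) and the aldolase pair at -0.13 (SE 0.10) overlapped between the groups (exact permutation p = 0.3 for both, n = 3 and 3 mice). In the aldolase pair knockout replicate 1 at -0.33 made most of the difference.

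**Figure D3:**
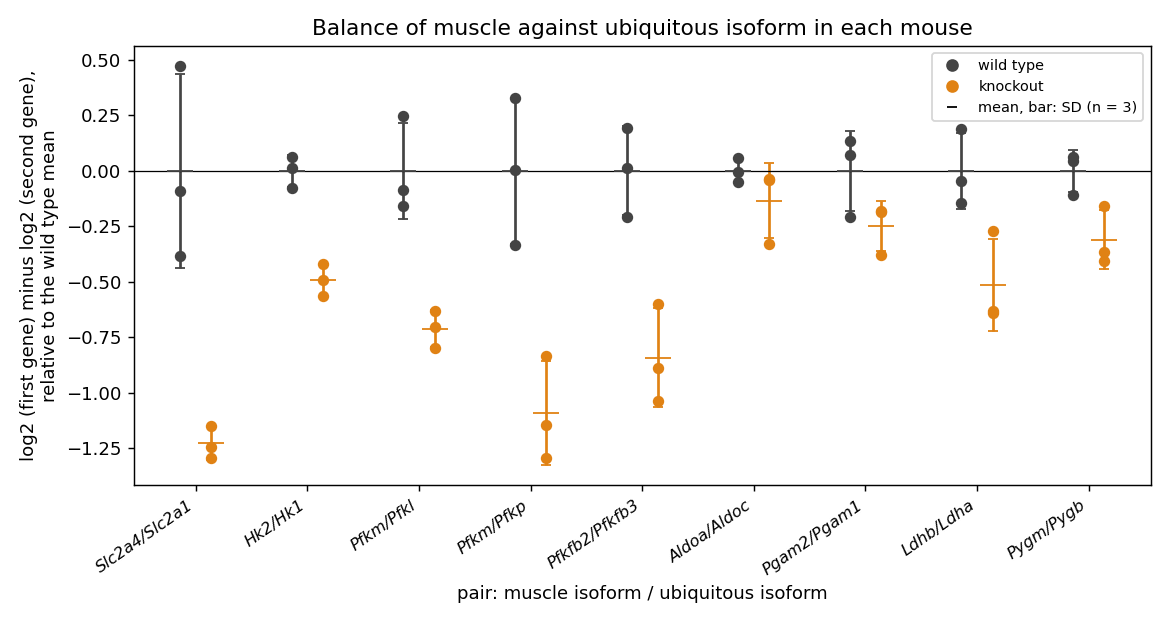
Balance of the muscle against the ubiquitous isoform in each mouse (y axis, log2 difference relative to the wild type mean) for 9 pairs (x axis), with wild type hearts in grey, knockout hearts in orange, and mean and SD over 3 mice. Knockout hearts lie below all wild type hearts in 7 pairs, from -1.23 for the transporters to -0.31 for the phosphorylases, and overlap them for the aldolases and the mutases.

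The other genes of glucose and glycogen metabolism were counted from a separate list. Of 90 listed genes 85 were measured, and 0 passed by limma in either direction, with 5 higher and 18 lower at an unadjusted p under 0.05 (5.88% and 21.2%, against 5.19% and 6.33% of all main probe sets). The groups did not overlap in 7 as higher and 20 as lower, or 8.24% and 23.5%, against 7.34% and 9.38% of all main probe sets. The share on the higher side was thus near that of all genes. The median difference was -0.07. The GLUT4 trafficking gene Tbc1d4, a target of insulin signalling, was at -0.82 (SE 0.17, adjusted p = 0.0950 by limma), and the insulin receptor substrate gene Irs1 was at -0.56 (SE 0.11, adjusted p = 0.0906 by limma). Both were lower in all 3 knockout hearts, as was the insulin receptor gene Insr at -0.37, which was outside the naming rule and was chosen after its values were seen. In the opposite direction, and also named after their values were seen, Irs2 was at 0.32 and the GLUT4 trafficking gene Tbc1d1 at 0.37, both with overlap. The Tbc1d1 value was led by knockout replicate 1 at 6.75. Its other knockout hearts were at 5.59 and 5.79 and wild type hearts at 5.84, 5.56 and 5.61. Myc, a transcription factor that drives many glycolytic genes, was at 0.71 (SE 0.13, adjusted p = 0.0539 by limma) and higher in all 3.

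Pyruvate genes outside the list leaned lower, with 9 of 10 negative and a median of -0.26, where 50.6% of all main probe sets were negative. Pdp2, a phosphatase that opposes the PDK kinases, was at -0.55, and the mitochondrial D-lactate dehydrogenase gene Ldhd at -0.43, both without overlap. Pdk4, named here after its values were seen, was at 0.09 with a 95% interval of -0.20 to 0.39. Among glycogen genes, 12 of 22 were negative (54.5%), near the share of all genes. Nhlrc1, a ubiquitin ligase of glycogen quality control, was at -0.44. The shuttle gene Gpd1l, a glycerol phosphate dehydrogenase relative, was at -0.38. Hexosamine genes had a median of 0.23, with Gfpt2, which opens that branch, at 0.43 and higher in every knockout heart. Of the 7 hexosamine genes 2 were higher and 2 lower without overlap (28.6% each, against 7.34% and 9.38% of all main probe sets). The lower ones were Ogt (-0.33) and Oga (-0.21), which add and remove the sugar on proteins and were named after their values were seen. The pentose phosphate genes had 0 of 5 measured members without overlap and a median of 0.00. With so few genes this count cannot be set apart from the shares of all genes.

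**Figure D4:**
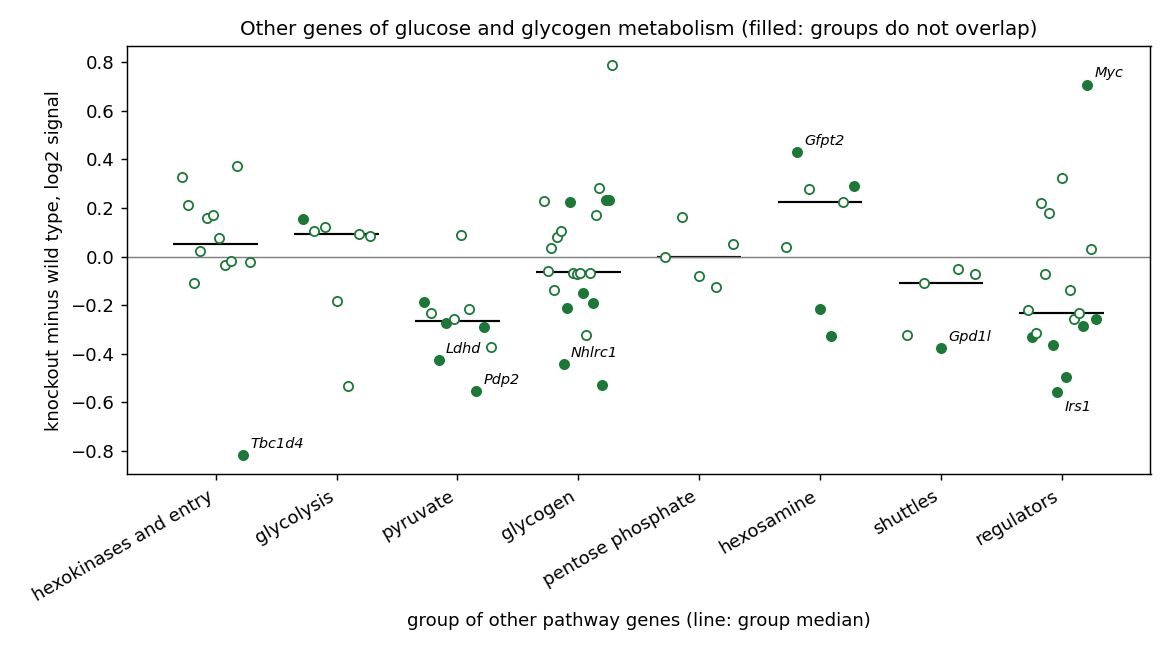
Difference in log2 signal (y axis, knockout minus wild type) of 85 other genes in 8 groups (x axis), each point a gene, filled where the 3 knockout and 3 wild type hearts do not overlap, with lines at group medians. Tbc1d4 (-0.82) and Myc (0.71) lie near the ends, the pyruvate and regulator groups lie mostly below 0, and no gene passed the adjusted threshold.

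Marker levels of several cell types also differed in the same hearts. All 10 cardiomyocyte markers had a negative difference, from -0.41 to -0.03 with a median of -0.13, and their summed linear signal was 81726 to 82961 in knockout against 87646 to 90550 in wild type hearts. Fibroblast markers were positive in 6 of 7 (median 0.40), with summed signals of 12217 to 13782 against 6221 to 12105, and macrophage markers in 7 of 7 (median 0.39), with 2029 to 2368 against 1587 to 2014. The low end of both wild type ranges was replicate 3. Wild type replicates 1 and 2 were at 12105 and 11286 for fibroblast markers and at 1876 and 2014 for macrophage markers. Smooth muscle and pericyte markers were positive in 5 of 6 (median 0.23, 6155 to 7729 against 6096 to 6331), and endothelial markers in 2 of 6 (median -0.10, 1239 to 1493 against 1410 to 1495). Neutrophil markers were dim (113 to 161 against 72.6 to 93.5). Atrial markers were positive in 6 of 6, with summed signals of 10621 to 34649 against 3864 to 6654. For Myl7, Myl4, Sln, Bmp10 and Stard10 this rested on knockout replicate 1, and the other knockout hearts lay near wild type levels. Myl7 read 12.86, 3.90 and 3.71 in knockout hearts and 3.59, 3.45 and 3.80 in wild type hearts. Nppa was the brightest of the list in every heart. Only Nppa among the atrial markers passed, at 1.19 (adjusted p = 0.0496 by limma), and it was higher in every knockout heart. The skeletal muscle, adipocyte, T cell, Schwann cell and red blood cell lists had medians of -0.10, -0.01, -0.05, -0.01 and 0.15. Hypoxia targets were positive in 8 of 9 (median 0.20) with 0 past the threshold, and heat shock genes in 6 of 6 (median 0.36) with 2 past it, Hspa1b at 2.33 (adjusted p = 0.00579 by limma) and Hspa1a at 2.20 (adjusted p = 0.0429 by limma). The differences of Pfkfb2, Pdk2, Pfkm, Slc2a4 and Pygm lay beyond the range of the cardiomyocyte markers. Those of other lower members, such as Ldhb (-0.40) and Hk2 (-0.38), lay within it. Several cardiomyocyte markers lie near the top of the scale, where the signal can be compressed. The lowest difference among them was that of Ryr2, the dimmest marker, with group means of 10.34 and 9.93. Their range therefore does not bound what dimmer genes of the same cells would show. The part of these shifts in the isoform values was not tested. Without knockout replicate 1, the array with the highest mean atrial signal, Pfkm was at -0.59 and Pfkfb2 at -0.79, and neither passed the threshold.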

How the data were processed

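The authors deposited log2 signals per probe set from 6 Affymetrix arrays. The submitters' processing notes name RMA and limma without settings or versions. RMA makes array distributions alike, so an overall shift between groups would be lost, and very dim or very bright signals can be compressed. Scanner files were not used, and a batch of scans could not be examined.

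Of 38208 probe sets, 13 controls were left out and 38195 were tested with limma 3.58.1 in R 4.3.3 (lmFit and eBayes, two-sided, no block, Benjamini-Hochberg over all of them, threshold 0.05). Knockout minus wild type differences, SEs, 95% intervals and adjusted p-values come from this fit, with n = 3 mice in each group, and the number of arrays limits their precision. Gene names came from the platform annotation, and 34325 probe sets had 1 symbol, 62 several and 3808 none. Isoform balances were tested by exact permutation (scipy 1.17.1). Replicate numbers were not taken as pairs of mice. The deviations of same-numbered mice from their group means correlated at 0.06, 0.14 and 0.02, and those of differently numbered mice at -0.14 to 0.08. These values do not decide whether the mice were paired. All 40 members were named. Values of each mouse were given for members that passed or did not overlap and for the isoform pairs, and among other pathway genes the 8 with the smallest unadjusted p were named. The members and lists were chosen with earlier results of these data known. Alternatives were a block, 2 variance priors, array weights, centring on the median, quantile normalization applied again, a filter at the 40th percentile, 1 probe set per gene, the mean of all probe sets, and arrays left out. The fit was tested on simulated data.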

Additional observations from a re-analysis of the deposited data

How the results depend on the processing

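With 3 arrays in each group, calls near the threshold depended on single arrays, while most directions did not. All 16 members whose groups did not overlap kept their direction in every alternative run for them, as did the 9 isoform balances. Where groups do not overlap, leaving out or weighting arrays cannot turn the direction. The block, the variance priors, the filter and 1 probe set per gene leave the difference unchanged. Median centring moved every difference by the same small amount (Slc2a1 from 0.693 to 0.691) and cancels in a balance. The mean of all probe sets changes nothing for members with 1 probe set, such as Hk2 and Pfkm. For those 16 members only the second normalization, and this mean where there are several probe sets, could have turned the direction. The 7 balances without overlap could not turn with arrays left out either. The kept directions thus add little to the lack of overlap. The 2 members that fell were 1 with the mean of all probe sets (Pfkm), 1 with the replicate block (Pfkfb2; Pfkm had an adjusted p of 0.0596 by limma), 0 without both knockout replicate 1 and wild type replicate 3 (chosen after seeing the data), and 0 to 1 with single arrays left out. The 161 probe sets past the threshold were 168 with the replicate block, 29 without both those arrays, and 38 to 86 with single arrays left out. The replicate numbers were not taken as pairs. Wild type replicates 1 and 2 correlated best with their own number, and wild type replicate 3 did not. Other pathway genes that passed as higher numbered 1 (Myc) with 1 probe set per gene, with the robust prior and with the second quantile normalization, and 2 (Myc and Stbd1) with the block, which also gave 1 lower (Tbc1d4). Of the 35 members, those higher without overlap were 2 with the mean of all probe sets, against 7.42% of all genes. They were 3 with median centring and 3 with the second quantile normalization, against 7.07% and 7.9%. With single arrays left out they were 4 to 8, where overlap is rarer and 11.1% to 14.5% of all genes lay wholly higher. The smaller of these counts lie near the shares of all genes. The median over ubiquitous isoforms was 0.028 without both arrays.

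Directions turned for 9 members near 0. With arrays left out, singly or both, Slc2a3 ranged from -0.13 to 0.081, Pfkfb3 from -0.061 to 0.16, Pfkfb4 from -0.28 to 0.085, Aldoc from -0.0018 to 0.17, Tpi1 from -0.054 to 0.050, Pgam2 from -0.029 to 0.025, Pdhb from -0.12 (-0.10 singly) to 0.0022 and Mpc1 from -0.12 to 0.025. Without both arrays Mpc1 was at 0.014. The second quantile normalization gave 0.023 for Aldoa and 0.026 for Pdhb, and the mean of all probe sets gave -0.051 for Tpi1. The cause was not tested, beyond fewer arrays in those fits.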
